A study of Mus musculus with 6 samples.

Results

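Syndecans and glypicans are the 2 families of membrane-bound heparan sulfate proteoglycans, and their transcripts were examined in satellite cells, the resident stem cells of skeletal muscle. The members were taken by gene symbol, *Sdc1* to *Sdc4* and *Gpc1* to *Gpc6*, which gave 10 of the 54115 genes with a matched transcript. Of these, 9 had enough reads to be tested among 17152 genes. RNA-sequencing was performed on 3 Pax7 WT and 3 Pax7 KR samples. The cells came from hindlimb muscles, without injury, of C57BL/6J mice of 6 to 8 weeks and were sorted as cells positive for α7-INTEGRIN and CD34 and negative for CD31, CD11b, SCA-1 and CD45, and no antibody against a syndecan or glypican was part of that sort. In Pax7 KR mice a lysine of PAX7 that can be acetylated is replaced with arginine by CRISPR/Cas9 editing in every cell of the animal, and Pax7 WT mice were littermates from the same crosses. The comparison asks whether these transcripts differ when PAX7, the transcription factor that marks satellite cells, lacks this lysine.

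A syndecan crosses the membrane once and ends in a short cytoplasmic tail that binds adaptor proteins, whereas a glypican is held on the outer leaflet by a glycosylphosphatidylinositol anchor. Both carry heparan sulfate chains that bind growth factors, morphogens and matrix proteins and present them to their receptors. In muscle, SYNDECAN-3 and SYNDECAN-4 are used as surface markers of satellite cells, and syndecans have been linked to FGF and HGF signalling in them.

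The ends of the coding sequences show what the 4 syndecans have in common. The last 84 coding bases before the stop codon, which are 28 codons of the cytoplasmic tail, are given 5′ to 3′ on the coding strand from GENCODE M21 transcripts (GRCm38), and the capitals mark the last 12 bases, which encode the end of the tail that binds PDZ domain proteins such as syntenin.
Sdc1: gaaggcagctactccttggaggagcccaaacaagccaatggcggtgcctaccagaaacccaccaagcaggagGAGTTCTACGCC
Sdc2: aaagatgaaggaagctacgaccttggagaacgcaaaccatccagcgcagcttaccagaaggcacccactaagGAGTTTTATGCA
Sdc3: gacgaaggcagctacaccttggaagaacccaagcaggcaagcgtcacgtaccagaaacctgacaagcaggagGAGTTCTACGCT
Sdc4: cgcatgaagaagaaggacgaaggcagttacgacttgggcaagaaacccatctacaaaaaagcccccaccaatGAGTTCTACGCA
They lie at chr12:8791721-8791804 on the plus strand for *Sdc1*, chr15:33032454-33032537 on the plus strand for *Sdc2*, chr4:130822723-130822806 on the plus strand for *Sdc3* and chr2:164426089-164426172 on the minus strand for *Sdc4*. In the capitals, 9 of 12 bases are identical in all 4 genes, and each base that differs is the last of its codon. Over the last 24 bases the genes fall into pairs, with 21 identical bases between *Sdc1* and *Sdc3* and 19 between *Sdc2* and *Sdc4*, against 12 to 14 for the other pairs.

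Despite this, reads of one member could be told from those of another. No stretch of 31 bases was shared between GENCODE M21 transcripts of any members. The authors quantified against a later GENCODE release, in which this was not checked. Aligned whole coding sequences matched in 38.0% to 59.3% of alignment columns among syndecans and in 52.4% to 68.6% among glypicans, with *Gpc4* and *Gpc6* the most alike pair. The coding sequences run from 198 codons in *Sdc4* to 442 in *Sdc3* for the syndecans and from 555 in *Gpc6* to 645 in *Gpc5* for the glypicans. *Gpc2* shared 52% of its stretches of 31 bases with the read-through gene *Gm43720*, which was assigned 0 to 0.0553 TPM (a level scaled by transcript length and depth), so the split of reads between this pair is uncertain. *Sdc1* shared 2.77% of its stretches with 2 processed pseudogenes listed at 0 in every library, and *Sdc2* shared 3.23% with the lincRNA *Gm32618*, which was at 3.59 to 5.26 TPM.

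Depth ran from 17822367 to 27908054 estimated reads per library. *Pax7* was at 511 to 590 TPM, and all 11 satellite cell markers examined were above 100 TPM in every library, so the labelled cell type was present by these markers. Markers of other cells were present too. The 4 erythroid genes summed to 407 to 786 TPM in Pax7 WT and 742 to 1221 TPM in Pax7 KR, with 4 of 4 estimates higher in Pax7 KR (median log2 fold change 0.69), and the 8 endothelial genes summed to 176 to 245 and 206 to 304 TPM, with 7 of 8 higher (median 0.30). The 9 fibro-adipogenic genes summed to 661 to 732 TPM, from *Col3a1* at 597 to 668 TPM down to *Pdgfra* at 0.356 to 0.979 TPM. The sums were 175 to 222 TPM for 6 smooth muscle and pericyte genes, with 6 of 6 estimates lower (median -0.13), 49.9 to 92.8 TPM for 5 Schwann cell genes, 30.5 to 61.8 TPM for 5 tenocyte genes, 53.1 to 78.3 TPM for 7 myofibre genes and 15.9 to 22.5 TPM for 8 immune genes, of which *Cd3e* was listed at 0. No marker gene passed the edgeR test at an adjusted p under 0.1, 1 (*Cd79a*, lower) had an unadjusted p under 0.05, and the part of other cells in the results on syndecans and glypicans was not tested. A pair of libraries stood apart. Pax7 WT replicate 2 had the lowest level of 10 of 12 genes that respond to tissue dissociation, and Pax7 KR replicate 2 had the lowest Y-linked transcripts (*Ddx3y* at 24.4 TPM against 53.5 to 61.9 and *Eif2s3y* at 42.6 against 86.5 to 115), with *Xist* at 0.0420 to 1.08 TPM in all libraries. All 5 sex-linked genes examined had a lower estimate in Pax7 KR (median log2 fold change -0.34). Of these, 1 had an unadjusted p under 0.05 (edgeR; 2.43% of all genes, lower), 1 had no overlap between genotypes (10.3% of all genes) and 0 were called.

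*Sdc4* was by far the most abundant member. Its transcripts were at 431, 347 and 461 TPM in the 3 Pax7 WT libraries and at 453, 460 and 485 TPM in the 3 Pax7 KR libraries, which placed its mean above 98.5% of the genes tested (rank 257). *Sdc3* (mean 66.4 TPM over 6 libraries) and *Sdc2* (59.0 TPM) followed, and *Sdc4* exceeded *Sdc3* by 6.02 to 7.55 times within a library. *Gpc1* (41.7 TPM) and *Gpc4* (40.6 TPM) came next, then *Sdc1* (17.0 TPM) and *Gpc2* (9.37 TPM). *Gpc6* (2.82 TPM) and *Gpc3* (2.70 TPM) were low, and *Gpc5* was listed at 0.

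**Figure D1:**
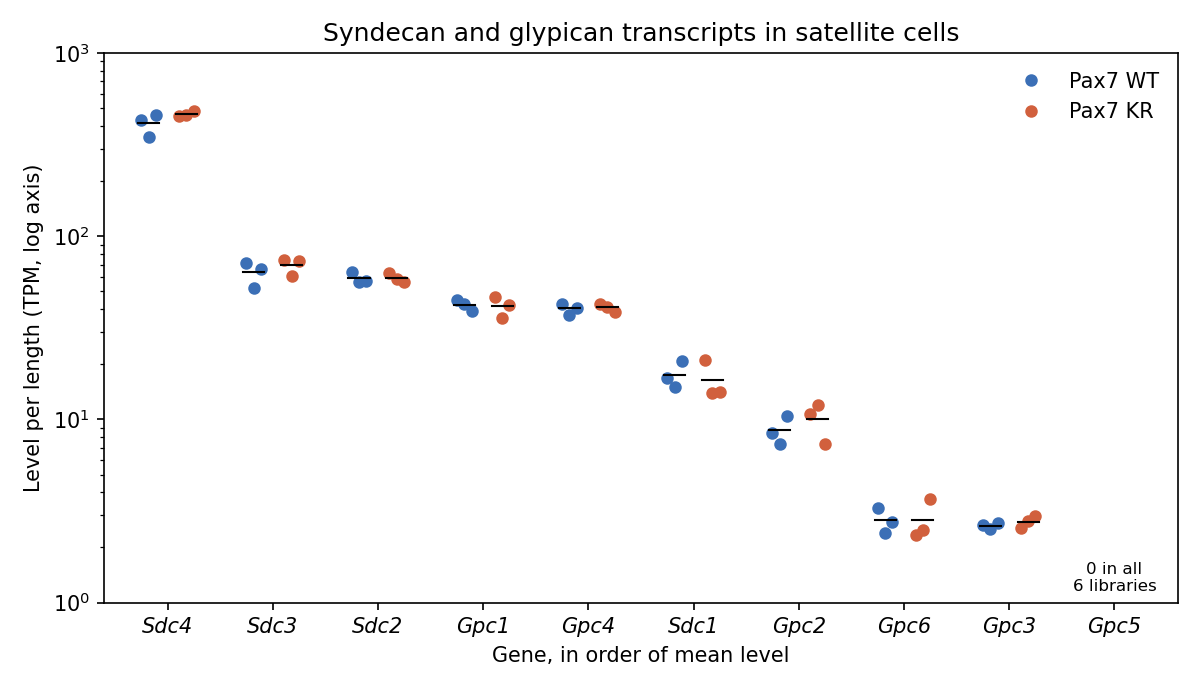
Level per transcript length (TPM, log axis) of each syndecan and glypican gene, in order of mean level, with 1 point per library (blue, Pax7 WT; orange, Pax7 KR; 3 libraries each) and a black line at the mean of each genotype. *Sdc4*, with means of 413 TPM in Pax7 WT and 466 TPM in Pax7 KR, lies far above the other 9 genes, and the blue and orange points overlap for each detected gene.

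In this order, 3 neighbouring pairs did not differ beyond the spread of the 6 libraries. *Sdc3* was above *Sdc2* in 5 of 6 libraries, *Gpc1* above *Gpc4* in 4 of 6, and *Gpc6* above *Gpc3* in 3 of 6. For every other neighbouring pair the ranges over the 6 libraries did not overlap. Together the syndecans summed to 470 to 629 TPM and the glypicans to 92.1 to 105 TPM, so that syndecan transcripts outnumbered glypican transcripts by 5.10 to 6.64 times. *Sdc4* accounted for 73.8% to 77.5% of syndecan TPM, whereas *Gpc1* (38.1% to 46.1%) and *Gpc4* (40.6% to 43.7%) held most of the glypican TPM in near equal parts. Among 20 genes for proteins that can carry heparan sulfate chains, *Sdc4* ranked first with 26.6% to 33.7% of their summed TPM, ahead of *Tgfbr3*, which encodes betaglycan (mean 331 TPM), and *Hspg2*, which encodes the basement membrane proteoglycan perlecan (206 TPM).

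None of the 9 members tested passed the test between genotypes. At an adjusted p under 0.1 (edgeR quasi-likelihood test, Benjamini-Hochberg over 17152 genes) 0 of 9 members were called, and over all genes tested the share called was likewise 0% (0 of 17152). At an unadjusted p under 0.05 the members again gave 0 of 9, beside 4.68% (803) of all genes, and DESeq2 called 30 genes, of which 0 were members. The CPM values of the genotypes overlapped for all 9 members, whereas they did not overlap for 10.3% of the genes tested. CPM are reads scaled by library size with its TMM factor, not by transcript length, and were used to compare 1 gene between libraries. Of the members, 4 had a higher and 5 a lower estimate in Pax7 KR, with a median log2 fold change of -0.008, beside 8399 higher, 8753 lower and a median of -0.004 over all genes. In these bulk samples, fewer cells of a type and less RNA per cell cannot be told apart. Labels and methods do not state how many mice contributed to each library, so p-values measure the spread between these samples.

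**Figure D2:**
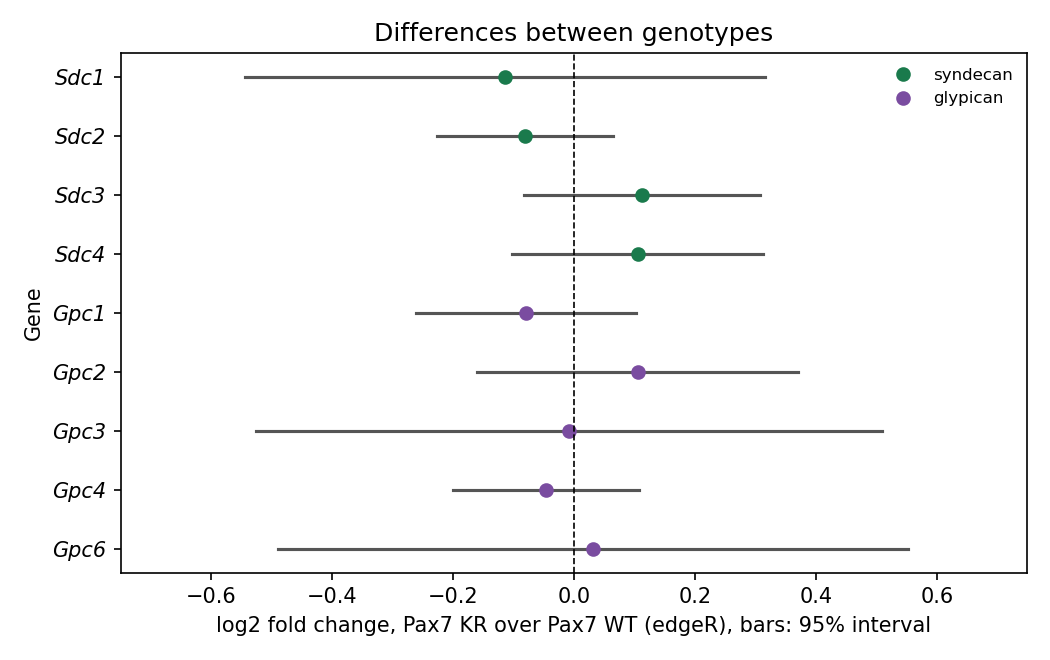
log2 fold change of Pax7 KR over Pax7 WT (edgeR) for the 9 members tested, syndecans in green and glypicans in purple, with bars for the 95% interval. Each interval spans 0, and the bars are widest for *Sdc1*, *Gpc3* and *Gpc6*.

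The intervals set how large a difference could have gone unseen. *Sdc4* (ENSMUSG00000017009, chr2:164424247-164443887, minus strand), whose product joins integrins at focal adhesions, was at 607, 498 and 658 CPM in Pax7 WT and at 602, 620 and 674 CPM in Pax7 KR. Pax7 WT replicate 2 was the lowest of the 6, and the range of the other Pax7 WT libraries lay within that of Pax7 KR. Its log2 fold change was 0.10 ± 0.10 (SE, n = 3 per genotype; edgeR adjusted p = 0.998), with a 95% interval from -0.10 to 0.31, or 0.931 to 1.24 times. Without Pax7 WT replicate 2 the estimate was -0.001. In that library *Sdc4* was at 81.7% of the 6-library mean, and the 12 dissociation-response genes were at 38.2% (*Atf3*) to 97.6% (*Hspa1b*), with *Fos* at 63.9% and *Egr1* at 63.9%. Their part in the level of *Sdc4* was not tested. Summed over the 12 genes, the range was 19240 to 32030 TPM in Pax7 WT and 25500 to 29150 TPM in Pax7 KR. Other members in Pax7 WT replicate 2 were at 87.9% (*Sdc1*), 93.5% (*Sdc3*), 94.5% (*Gpc4*), 97.0% (*Sdc2*) and 104.5% (*Gpc1*) of their 6-library means. Over the tested members, 3 were lowest in that library and 3 in Pax7 KR replicate 2.

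**Figure D3:**
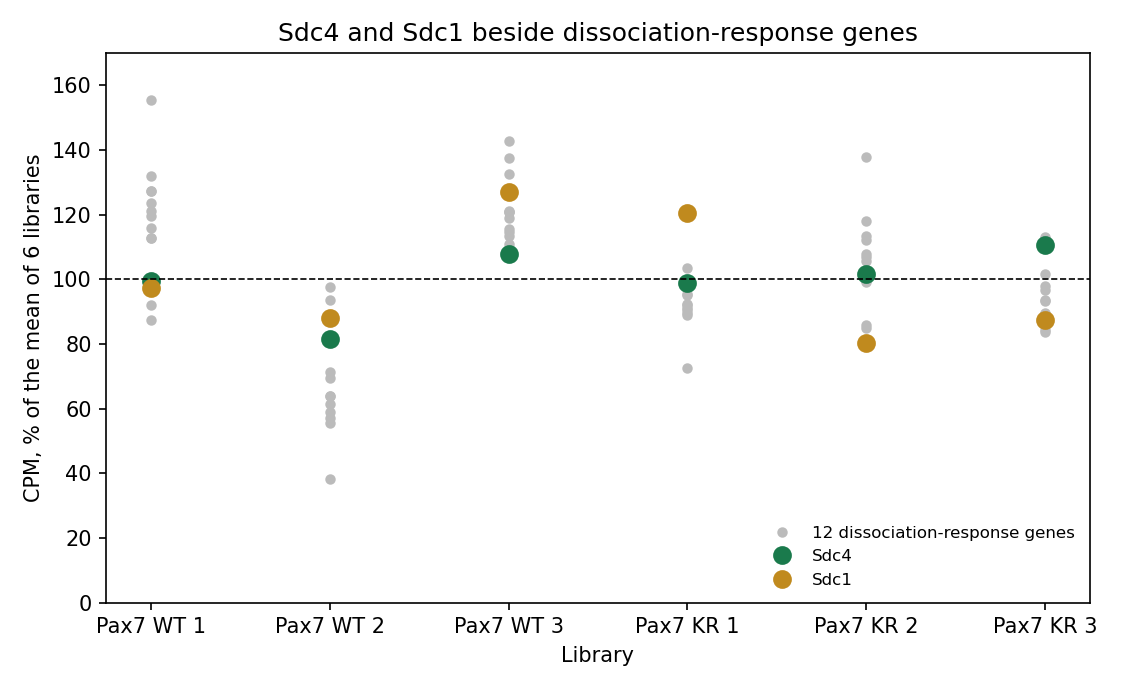
CPM of each gene as a percentage of its mean over the 6 libraries, for *Sdc4* (green), *Sdc1* (gold) and 12 dissociation-response genes (grey), with libraries on the horizontal axis and a dashed line at 100%. In Pax7 WT replicate 2 all 14 genes lie below the line, *Sdc4* at 81.7%, and *Sdc1* stands high in Pax7 WT replicate 3 and Pax7 KR replicate 1.

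*Sdc3* (ENSMUSG00000025743, chr4:130792537-130826319, plus strand), which shares its tail sequence with *Sdc1* more than with the others, was at 140, 126 and 122 CPM in Pax7 WT and at 159, 125 and 135 CPM in Pax7 KR. Only Pax7 KR replicate 1 lay above all 3 Pax7 WT libraries. The log2 fold change was 0.11 ± 0.09 (SE; edgeR adjusted p = 0.997), with a 95% interval from -0.08 to 0.31.

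*Sdc2* (ENSMUSG00000022261, chr15:32920723-33034935, plus strand), the syndecan typical of mesenchymal cells, was at 131, 114 and 117 CPM in Pax7 WT and at 119, 112 and 112 CPM in Pax7 KR. Pax7 WT replicate 1 was the highest, and the genotypes overlapped. With a log2 fold change of -0.08 ± 0.07 (SE; edgeR adjusted p = 0.998), the 95% interval ran from -0.23 to 0.06, the narrowest of the syndecans.

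*Sdc1* (ENSMUSG00000020592, chr12:8771323-8793715, plus strand), best known from epithelial and plasma cells, was the least abundant syndecan. It was at 24.4, 22.1 and 31.9 CPM in Pax7 WT and at 30.3, 20.2 and 21.9 CPM in Pax7 KR. One library of each genotype, Pax7 WT replicate 3 and Pax7 KR replicate 1, stood above the other 4, and the spread within a genotype (coefficient of variation 20.9%) was wider than for the other syndecans (6.04% to 10.5%) and than the median of all genes tested (12.2%). The log2 fold change was -0.12 ± 0.19 (SE; edgeR adjusted p = 0.998) with a 95% interval from -0.55 to 0.32, and it was 0.05 without Pax7 WT replicate 3.

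Among the glypicans, *Gpc1* (ENSMUSG00000034220, chr1:92831645-92860779, plus strand), a co-receptor for FGF, was at 101, 97.0 and 87.9 CPM in Pax7 WT and at 100, 80.4 and 90.2 CPM in Pax7 KR. Pax7 KR replicate 2 was the lowest library, and the genotypes overlapped. The log2 fold change was -0.08 ± 0.08 (SE; edgeR adjusted p = 0.998), with a 95% interval from -0.26 to 0.10. *Gpc1* is overlapped on the opposite strand by *Ankmy1*, which was at 0.726 to 1.45 TPM, and the library kit kept strand.

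*Gpc4* and *Gpc3* lie side by side on the minus strand of chromosome X, at chrX:52053021-52165252 (ENSMUSG00000031119) and chrX:52272426-52613950 (ENSMUSG00000055653). They are 107 kb apart with 0 annotated genes between them. *Gpc4* was nonetheless 13.0 to 16.8 times as high as *Gpc3* by TPM within each library. *Gpc4* was at 65.7, 57.7 and 62.6 CPM in Pax7 WT and at 62.0, 60.1 and 58.2 CPM in Pax7 KR. It was the steadiest member, with a coefficient of variation of 5.17% within a genotype, and its log2 fold change of -0.05 ± 0.07 (SE; edgeR adjusted p = 0.998) had a 95% interval from -0.20 to 0.11. *Gpc3*, an inhibitor of Hedgehog signalling that is lost in an overgrowth syndrome, had only 58 to 93 reads per library. Its values of 3.42, 3.27 and 3.51 CPM in Pax7 WT and 2.97, 3.39 and 3.78 CPM in Pax7 KR gave a log2 fold change of -0.01 ± 0.24 (SE; edgeR adjusted p = 0.998) and a 95% interval from -0.53 to 0.51. In Pax7 KR replicate 2, the library with low Y-linked transcripts, both X-linked genes lay within the range of the other 5 libraries.

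*Gpc5* and *Gpc6* form a second neighbouring pair, on the plus strand of chromosome 14 at chr14:115092215-116525179 (ENSMUSG00000022112) and chr14:116925315-117976544 (ENSMUSG00000058571), 400.1 kb apart. They are the longest genes of the group, at 1433 and 1051 kb. *Gpc5* had 0 reads in all 6 libraries and was not tested. A count of 0 allows up to 3 reads per library, which is 0.110 to 0.169 CPM, for counting error only. *Gpc6* had 61 to 129 reads per library. It was at 4.74, 3.44 and 5.85 CPM in Pax7 WT and at 4.07, 4.65 and 5.67 CPM in Pax7 KR, so the Pax7 KR values lay within the Pax7 WT range. The log2 fold change of 0.03 ± 0.24 (SE; edgeR adjusted p = 0.998) had a 95% interval from -0.49 to 0.55, and leaving out Pax7 WT replicate 2 moved it to -0.14, whereas leaving out Pax7 KR replicate 3 moved it to -0.10.

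*Gpc2* (ENSMUSG00000029510, chr5:138273655-138280005, minus strand), the glypican of developing neurons, was at 11.2, 13.5 and 11.6 CPM in Pax7 WT and at 13.1, 12.6 and 13.2 CPM in Pax7 KR. The 3 Pax7 KR libraries lay close together, within the Pax7 WT range. The log2 fold change was 0.11 ± 0.12 (SE; edgeR adjusted p = 0.998), with a 95% interval from -0.16 to 0.37.

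Transcript estimates divided the members into those with 1 dominant form and those without. *Sdc2* and *Gpc4* have a single annotated transcript. *Sdc4-201* held 98.8% to 100% of *Sdc4* TPM and *Gpc1-201* held 91.0% to 98.5% of *Gpc1* TPM. *Sdc1* was shared between *Sdc1-205* (46.6% to 64.7%) and *Sdc1-201*, 2 coding transcripts with the same stop codon. *Sdc3-201* held 60.9% to 81.2% of *Sdc3* TPM but 94.1% to 97.6% of its reads, since the partial transcript *Sdc3-205* is short. *Gpc2* had no dominant form: its coding transcript *Gpc2-205* held 14.7% to 35.4% of TPM, with the rest on retained-intron and non-coding forms, and the leading non-coding *Gpc2-202* ranged from 0% to 44.9%. *Gpc6-202* ranged from 33.2% to 86.8% on few reads.

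**Figure D4:**
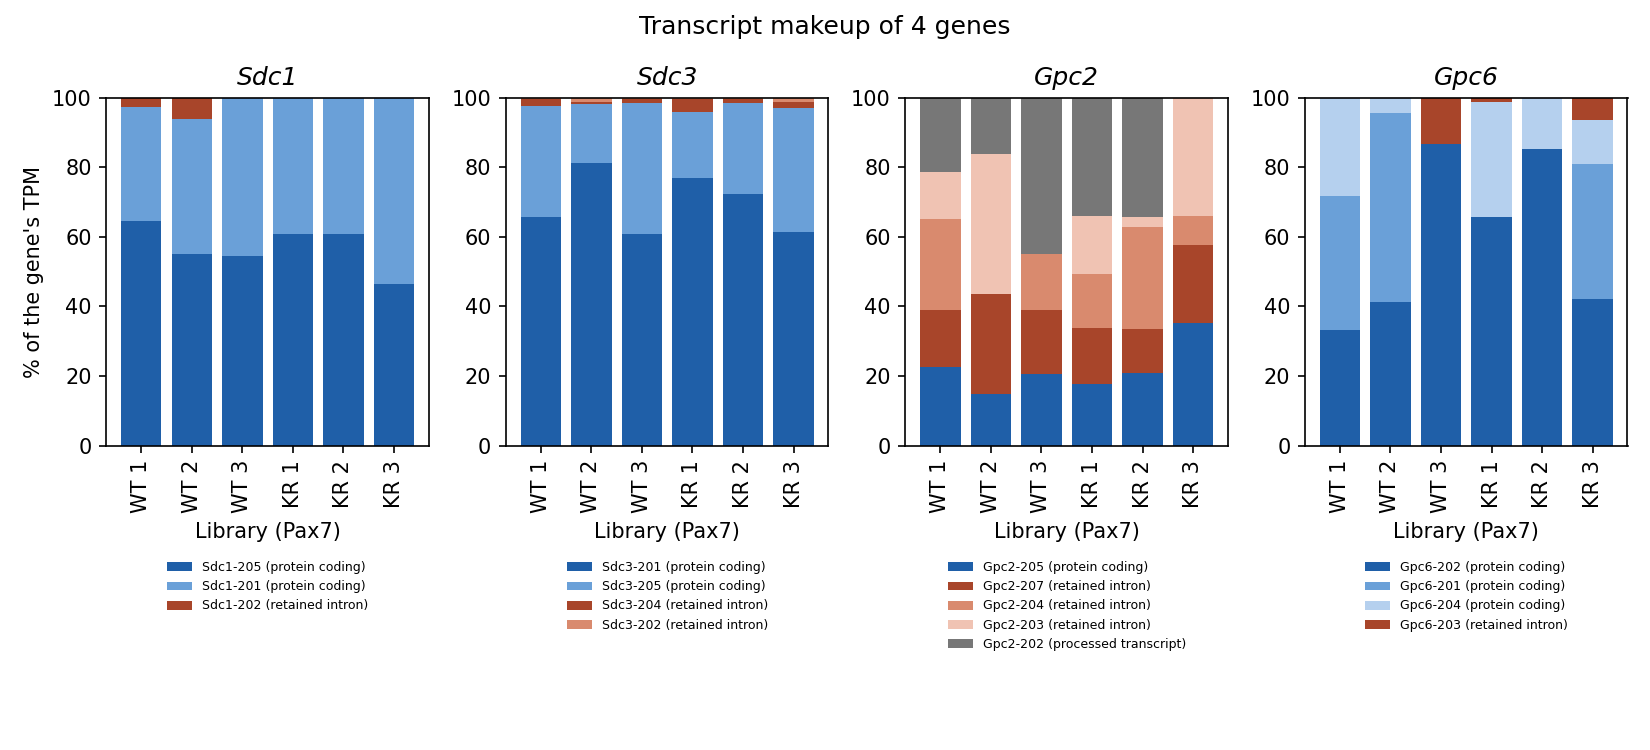
Share of each gene's TPM held by its transcripts in each library, for *Sdc1*, *Sdc3*, *Gpc2* and *Gpc6*, with coding transcripts in blue, retained-intron transcripts in red and other non-coding transcripts in grey. *Gpc2-205*, the coding form, is the smaller part of *Gpc2* in every library (14.7% to 35.4%), and *Gpc6* changes its leading form between libraries of 1 genotype.

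The shares of the leading transcript overlapped between genotypes in all of the 7 members with more than 1 detected transcript. For *Sdc1-205* it was 58.1% ± 5.7 (SD, n = 3) in Pax7 WT and 56.2% ± 8.3 (SD, n = 3) in Pax7 KR (two-sided exact permutation test, p = 0.8), and for *Sdc3-201* 69.3% ± 10.6 (SD, n = 3) and 70.3% ± 7.9 (SD, n = 3) (exact permutation test, p = 0.9). The exact p of the other 5 members ran from 0.7 to 1, and 3 against 3 libraries cannot give a p below 0.1.

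The heparan sulfate chain is built on the core protein in steps, and the genes of these steps were followed as lists. Linker synthesis starts the chain on a serine, and *B3gat3*, which adds the last linker sugar, *Fam20b*, the xylose kinase, and *Xylt2*, a xylosyltransferase, were its most abundant genes. They were at 38.7 ± 3.3, 28.3 ± 4.5 and 19.0 ± 1.7 TPM in Pax7 WT (SD, n = 3) and at 36.9 ± 2.7, 29.2 ± 0.5 and 21.1 ± 1.9 TPM in Pax7 KR (SD, n = 3). The polymerase subunits *Ext2* and *Ext1* were at 68.4 ± 2.6 and 33.0 ± 4.7 TPM in Pax7 WT and at 74.9 ± 2.9 and 30.9 ± 3.7 TPM in Pax7 KR (SD, n = 3), and *Extl3*, which starts the heparan sulfate chain, was at 20.3 ± 1.9 and 20.2 ± 1.2 TPM. The higher TPM of *Ext2* in Pax7 KR was not seen in the test on counts (log2 fold change -0.007 ± 0.068, SE; edgeR adjusted p = 0.998). Of the 7 linker genes and 5 polymerisation genes, all tested, 0 were called, with median log2 fold changes of 0.09 and -0.01. The smallest unadjusted p was that of *Ext1* (0.0577, edgeR; adjusted p = 0.992), whose log2 fold change was -0.18 ± 0.09 (SE).

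Chain modification places the sulfate groups that growth factors recognise. *Hs6st2*, a 6-O-sulfotransferase, led this list at 109 ± 11 TPM in Pax7 WT and 101 ± 7 TPM in Pax7 KR (SD, n = 3). Within a library it was 5.38 to 7.34 times as high as its paralogue *Hs6st1* and 3.42 to 4.24 times as high as its paralogue *Hs6st3*. The N-deacetylase and sulfotransferase *Ndst1* (67.8 ± 7.8 and 71.2 ± 4.9 TPM) and the epimerase *Glce* (65.4 ± 7.0 and 67.2 ± 10.6 TPM) followed. Of 16 genes 12 were tested and 0 called, with 2 estimates higher and 10 lower and a median log2 fold change of -0.08. *Hs6st2* had the smallest unadjusted p (0.0984, edgeR; adjusted p = 0.992) with a log2 fold change of -0.16 ± 0.09 (SE), and *Ndst3*, at 0.742 and 0.429 TPM, came next.

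Genes for enzymes that edit or release the chains and core proteins spanned a wide range of levels, with 6 of 11 under 10 TPM on average and 3 of these under 1 TPM. *Mmp2* (262 ± 26 TPM in Pax7 WT and 283 ± 28 in Pax7 KR, SD, n = 3), a gelatinase, *Sulf1* (154 ± 14 and 169 ± 22 TPM), which removes 6-O-sulfates, and *Mmp14* (65.2 ± 9.6 and 68.6 ± 3.5 TPM), a membrane protease that can shed syndecans, led the list of 11 genes, of which 0 were called, with a median log2 fold change of 0.07. *Sulf1* exceeded its paralogue *Sulf2* by 173 to 771 times, but *Sulf2* was low, at 0.194 to 0.951 TPM. The ratio of 771 came from Pax7 WT replicate 3, where *Sulf2* was at 0.194 TPM. *Hpse*, the heparanase that cuts heparan sulfate, was at 16.5, 10.8 and 16.9 CPM in Pax7 WT and at 13.0, 6.03 and 8.46 CPM in Pax7 KR. Pax7 WT replicate 2 lay within the Pax7 KR range, and the log2 fold change was -0.69 ± 0.31 (SE; unadjusted p = 0.0661, edgeR adjusted p = 0.992). *Hpse2*, which encodes an inhibitor of heparanase, was at 0.0424, 0.237 and 0.0940 TPM in Pax7 WT and at 0.214, 1.20 and 0.0556 TPM in Pax7 KR, so that only Pax7 KR replicate 2 stood apart. Its log2 fold change of 1.96 ± 1.11 (SE; edgeR adjusted p = 0.992) was 0.10 without that library.

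Among the 10 other heparan sulfate carriers 0 were called, with a median log2 fold change of -0.06. *Tgfbr3* was at 322 ± 23 TPM in Pax7 WT and 340 ± 24 TPM in Pax7 KR, *Hspg2* at 201 ± 20 and 212 ± 5 TPM, and *Col18a1*, the collagen XVIII gene, at 53.6 ± 3.1 and 50.7 ± 6.3 TPM (SD, n = 3). The smallest p values in that list were those of *Nrp1* (log2 fold change 0.32 ± 0.21, SE; edgeR adjusted p = 0.992) and *Srgn* (-0.18 ± 0.13, SE; edgeR adjusted p = 0.992), neither past the threshold.

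**Figure D5:**
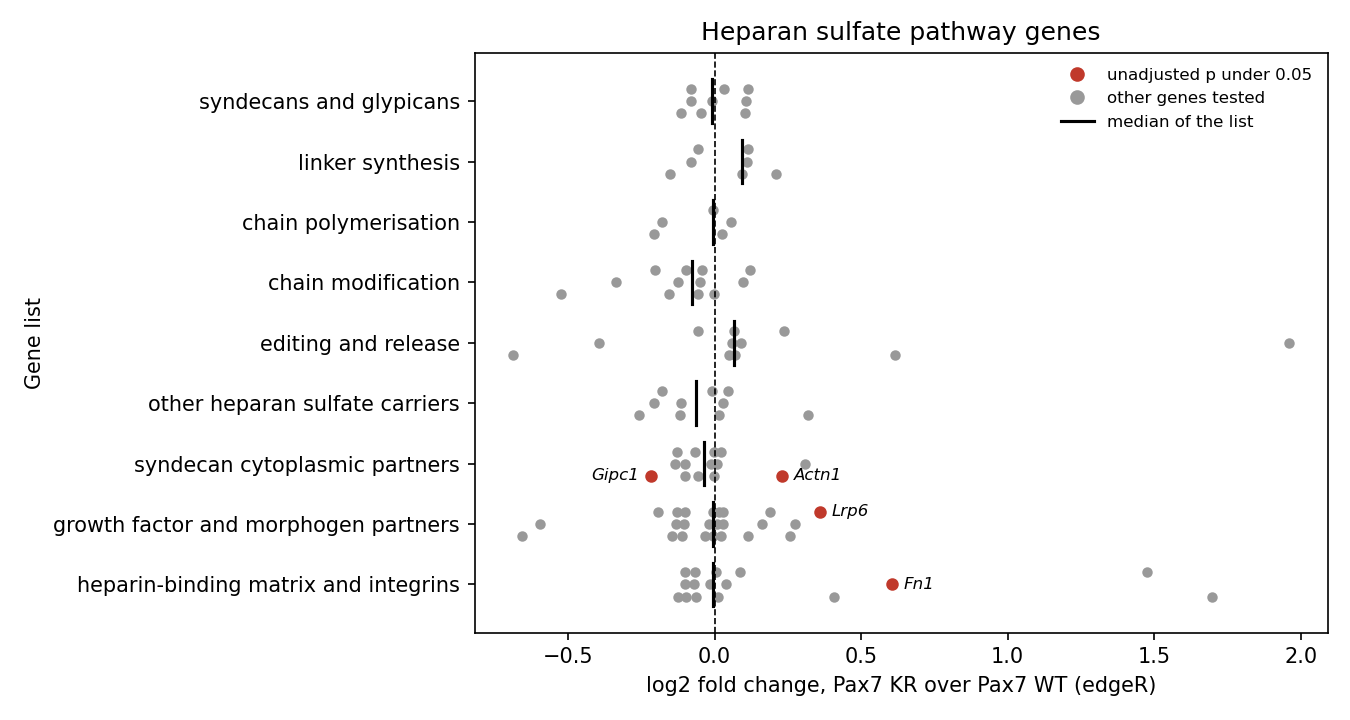
log2 fold change of Pax7 KR over Pax7 WT (edgeR) of each tested gene of the syndecans and glypicans and of 8 lists of the heparan sulfate pathway, with a black bar at the median of each list and genes with an unadjusted p under 0.05 in red. All 9 syndecans and glypicans lie between -0.12 and 0.11, and the 4 red genes, *Lrp6*, *Fn1*, *Actn1* and *Gipc1*, are in the partner lists, which hold the most tested genes.

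Of the 99 genes tested in the 8 pathway lists, 4 (4.04%) had an unadjusted p under 0.05, a share no larger than the 4.68% of all genes, and 0 passed the adjusted threshold. The 4 genes were in the lists of proteoglycan partners, which are the largest lists, with 14, 24 and 16 of the 99 genes tested. In the list of 14 syndecan cytoplasmic partners, led by the GTPases *Rhoa* (283 ± 6 TPM in Pax7 WT and 278 ± 8 in Pax7 KR, SD, n = 3) and *Rac1* (261 ± 10 and 272 ± 3 TPM) and by cortactin, *Cttn* (90.8 ± 5.5 and 93.2 ± 3.7 TPM), 1 gene was higher and 1 lower at that level, with a median log2 fold change of -0.04. The background is 2.26% of all genes higher and 2.43% lower. For *Rac1* the test on counts gave a log2 fold change of -0.013 ± 0.061 (SE; edgeR adjusted p = 0.998). CPM values of the genotypes did not overlap for 4 of the 14 genes, beside 10.3% of all genes tested. These were *Actn1*, higher in Pax7 KR, and *Gipc1*, *Rhoa* and *Src*, lower. *Rhoa* and *Src* had unadjusted p values of 0.265 and 0.234 (edgeR). *Actn1*, an actin cross-linker that binds the tail of SYNDECAN-4, was at 70.0, 74.4 and 68.9 CPM in Pax7 WT and at 81.6, 88.0 and 80.5 CPM in Pax7 KR, so that all 3 Pax7 KR libraries were above all 3 Pax7 WT libraries. The log2 fold change was 0.23 ± 0.07 (SE; unadjusted p = 0.00421, edgeR adjusted p = 0.992). *Gipc1*, a PDZ protein that binds syndecan tails, was at 25.1, 27.5 and 24.3 CPM in Pax7 WT and at 23.0, 22.0 and 21.0 CPM in Pax7 KR, again without overlap but lower, with a log2 fold change of -0.22 ± 0.10 (SE; unadjusted p = 0.0405, edgeR adjusted p = 0.992).

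Of 26 growth factor and morphogen partners 24 were tested, and 1 was higher and 0 lower at an unadjusted p under 0.05 (2.26% and 2.43% of all genes), with a median log2 fold change of -0.006. This list held the most abundant signalling partners, with *Fgfr4* at 822 ± 40 TPM in Pax7 WT and 850 ± 30 TPM in Pax7 KR, *Fgfr1* at 755 ± 41 and 869 ± 12 TPM and *Notch3* at 509 ± 34 and 493 ± 31 TPM (SD, n = 3). *Fgfr1*, which needs heparan sulfate to bind FGF, was at 1493, 1433 and 1532 CPM in Pax7 WT and at 1594, 1585 and 1647 CPM in Pax7 KR. These values did not overlap, but the log2 fold change of 0.12 ± 0.07 (SE) did not pass the test (unadjusted p = 0.111, edgeR adjusted p = 0.992). Of the 24 genes tested, 4 were without overlap, beside 10.3% of all genes tested: *Fgfr1* and *Lrp6*, higher in Pax7 KR, and *Vangl2* and *Ptch1*, lower. *Vangl2* and *Ptch1* had unadjusted p values of 0.183 and 0.0805 (edgeR). *Lrp6*, a Wnt co-receptor, had the smallest p of the list, with a log2 fold change of 0.36 ± 0.06 (SE; unadjusted p = 6.65e-05, edgeR adjusted p = 0.354). It was at 423.5 to 449.4 CPM in Pax7 WT and at 538.2 to 584.3 CPM in Pax7 KR. *Met*, the HGF receptor, was at 24.6 ± 2.3 and 23.1 ± 3.1 TPM (log2 fold change -0.19 ± 0.09, SE; edgeR adjusted p = 0.992).

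In the list of 16 heparin-binding matrix and integrin genes, 1 was higher and 0 lower at an unadjusted p under 0.05 (again beside 2.26% and 2.43%), with a median log2 fold change of -0.007. *Itgb1* (287 ± 5 TPM in Pax7 WT and 298 ± 12 in Pax7 KR, SD, n = 3), *Lamc1* (251 ± 33 and 224 ± 8 TPM) and *Itga7* (184 ± 15 and 184 ± 12 TPM), which encodes a subunit used in the sort, were the most abundant. *Fn1*, the gene of the matrix protein fibronectin, which SYNDECAN-4 binds, was at 29.5 to 36.4 CPM in Pax7 WT and at 44.0 to 59.2 CPM in Pax7 KR. It was the only 1 of the 16 genes without overlap between genotypes, beside 10.3% of all genes tested. Its log2 fold change was 0.61 ± 0.12 (SE; unadjusted p = 0.00027, edgeR adjusted p = 0.445). *Tnc*, which encodes tenascin-C, was at 1.03, 0.847 and 2.49 CPM in Pax7 WT and at 7.57, 2.43 and 2.13 CPM in Pax7 KR. Pax7 KR replicate 1 stood above the other 5 libraries, and the log2 fold change of 1.47 ± 0.63 (SE; edgeR adjusted p = 0.992) was 0.65 without it. DESeq2 called *Lrp6* (adjusted p = 0.000544) and *Fn1* (adjusted p = 0.00883), and over the alternatives with a different model, filter or set of libraries the calls of these genes varied. None of the syndecans or glypicans was called under any of them.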

How the data were processed

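The authors quantified directional paired-end reads of 6 satellite cell libraries, made from 15 ng of RNA each, per transcript with salmon (version 1.3.0) against GENCODE transcripts of GRCm38, and deposited estimated counts, TPM and effective lengths. Their deposited table of the genotype comparison (DESeq2, version 1.28.1: log2 fold changes and p-values) was not used. The estimated counts were added up per gene through GENCODE M21, an earlier release than the one the authors quantified against, and rounded. Of 140992 transcripts 139791 matched by identifier, and the 1201 others held 0.606% of reads and were left out. Depth was 17822367 to 27908054 reads per library.

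A gene entered the test of genotype in edgeR with at least 5 reads in at least 2 libraries (edgeR version 4.0.16; TMM, quasi-likelihood, Benjamini-Hochberg, cut-off 0.1), tested on simulated data first. Standard errors come from the F statistic and 95% intervals from its degrees of freedom. Levels of different genes were compared as the deposited TPM of the authors, summed over transcripts. Transcript shares were compared by exact permutation tests (scipy, version 1.17.1). Coding sequences were read from GENCODE M21 and aligned with Biopython. Alternatives were DESeq2 (version 1.42.0), length offsets, other filters and size factors, a replicate block and leaving out each library. The members and lists were chosen with earlier results of these data known. All 10 members were named, and from each pathway list the 3 genes of highest mean TPM, the 2 of smallest p and every gene with an unadjusted p under 0.05. Genes without overlap between genotypes, which added *Src*, *Vangl2* and *Ptch1*, and the paralogues *Hs6st1*, *Hs6st3* and *Sulf2* were named as well.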

Additional observations from a re-analysis of the deposited data

How the results depend on the processing

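The number of members called was 0 under all alternatives, and the smallest adjusted p of a member was 0.833. Over all genes, 0 were called by the quasi-likelihood test, 30 by DESeq2, 45 by DESeq2 with a length offset, 157 with no filter, and 1 to 32 when 1 library was left out (32 without Pax7 KR replicate 3). Same-numbered libraries deviated little together (correlations of deviations 0.001, 0.057 and -0.061, beside -0.1 to 0.097 for the other pairs). The labels do not say what the replicate numbers mean, so these values cannot decide whether samples were paired. The fit with a replicate block called 13 genes, of which 0 were members. In editing and release 1 gene, *Hpse*, was called with no filter (edgeR adjusted p = 0.0153). Its unadjusted p was 0.00713 in DESeq2 (adjusted p = 0.842) and 0.000838 in edgeR with the replicate block (adjusted p = 0.378). In growth factor and morphogen partners 1 was called by DESeq2, by DESeq2 with a length offset and with no filter, and in heparin-binding matrix and integrins 1, 1 and 2, respectively. The 2 called with no filter were *Fn1* (edgeR adjusted p = 5.52e-08) and *Tnc* (edgeR adjusted p = 0.00702). In DESeq2 the unadjusted p of *Tnc* was 0.0039 (adjusted p = 0.661). Leaving out 1 library gave 0 to 1 in both lists. The cause was not tested.

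Of 117 member values under alternatives, 107 kept the direction of the log2 fold change. With a length offset, in DESeq2 and edgeR, *Gpc3* was at 0.013 in both and *Gpc6* at -0.06 (-0.058 and -0.055). With 1 library left out, the log2 fold change ran from -0.313 to 0.051 for *Sdc1*, -0.001 to 0.19 for *Sdc4*, -0.094 to 0.075 for *Gpc3* and -0.14 to 0.22 for *Gpc6*. Of the pathway genes, *Pxylp1* moved from -0.15 to 0.02 with a length offset (0.021 and 0.019) and from -0.25 to 0.02 with 1 library left out, and *Extl3* from 0.057 to -0.073 with a length offset. *Fn1* moved from 0.606 to 0.908 with a length offset (DESeq2 adjusted p = 6.5e-08, edgeR adjusted p = 0.196). *Gpc3* and *Gpc6*, with at most 129 reads per library, had the widest intervals beside *Sdc1*. In the upper direction the interval reached 1.42 times for *Gpc3*, 1.47 times for *Gpc6* and 1.24 times for *Sdc1*. In the lower direction it reached 0.695 times for *Gpc3*, 0.712 times for *Gpc6* and 0.685 times for *Sdc1*.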
